A study of Homo sapiens with 4 samples.

Results

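The genes described are those of the mitochondrial ribosomal proteins, chosen by symbol: every row of the mRNA count table whose name begins MRPL or MRPS followed by a number. There were 78 such genes of 15562 in the table, and all 78 carry the table's own description of a mitochondrial ribosomal protein and a RefSeq entry as protein-coding genes. They were measured in H1975, an established human lung adenocarcinoma cell line labelled as wild type. One library came from cells kept for 24 h in normoxia (labelled NC), and the other from cells kept for 24 h in a hypoxic incubator with 1% O2, 5% CO2 and 94% N2. The question was how far the messages for the mitochondrial translation machine differed between the 2 RNA-seq libraries. With 1 library per condition there is no spread between cultures, so no p-value is given, each ratio carries only the interval that counting error allows, and effects of the condition and of the single culture or library cannot be told apart.

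Mitochondria keep their own ribosome, which makes the few proteins encoded by mitochondrial DNA, all of them core parts of the respiratory chain and ATP synthase. Its ribosomal RNAs are mitochondrial, but all its proteins are encoded in the nucleus, made in the cytosol and imported. The small subunit (most MRPS proteins) reads the message and the large subunit (MRPL proteins, with MRPS18A and MRPS30) joins the amino acids. Some proteins descend from bacterial ribosomal proteins, and others exist only in mitochondria.

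The normoxia library had 17643836 counts and the hypoxia library 18943320, and 1 read equalled a CPM (read count relative to library size after TMM scaling, which corrects for library composition) of 0.0565 and 0.0530. Epithelial markers of the labelled cells were abundant (KRT8, 63886 and 63715 counts in normoxia and hypoxia) and the lung factor NKX2-1 was present (1356 and 1567), while the surfactant genes SFTPB (14 and 14) and SFTPC (4 and 2) were nearly absent. Of 16 endothelial, fibroblast and leukocyte markers 13 were in the table, with a summed CPM of 145 in normoxia and 143 in hypoxia, mostly from the collagen gene COL1A1. VWF, TIE1 and PTPRC were at 0 counts in normoxia and at 1 or 2 in hypoxia. Among genes known to respond to hypoxia, NDRG1 had 1958 counts in normoxia and 5214 in hypoxia, and the carbonic anhydrase CA9 had 731 and 1112, log2 ratios of 1.32 (95% counting interval 1.25 to 1.40) and 0.51 (0.38 to 0.65).

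The control regions are shown first, because a short motif was more frequent in them than in those of other genes. RefSeq (GRCh38.p14) gave a start region for 70 of the 78 genes, read from 250 bases before the start site to 50 bases from it on, and 6 motifs were searched on both strands. The letters AAGATGGC, a core that the factor YY1 is known to bind, stood in 20 of the 70 regions (28.6%). The same letters stood in 5.42% of the 10426 regions of genes that passed the count filter and in 3.03% of all 27305 regions. They were in 11.8% of 68 regions of cytosolic ribosomal protein genes and in 16.2% of 68 regions of oxidative phosphorylation genes. Of the 21 matches in the members, 15 began at or after the start site, and of the 591 matches in the genes that passed the filter 369 did. The median first base lay 9 bases after the start in the members and 10 in those genes, a difference that was not tested. In this direction along the gene read 17 of the 21 matches in the members and 436 of the 591 in those genes. The letters contain ATG, the letters of a start codon. Whether a match inside the transcript lay at the start codon of the protein, and so in coding sequence, was not tested. The following 5 stretches, written 5′ to 3′ along the gene from 100 bases before the start site to the first 30 bases of the transcript, show the match in capitals just inside the transcript. They were picked to show genes of both subunits with this placement, and MRPL38 is also among the members with the lowest ratios.
MRPL38 (chr17:75904855-75904984, minus strand): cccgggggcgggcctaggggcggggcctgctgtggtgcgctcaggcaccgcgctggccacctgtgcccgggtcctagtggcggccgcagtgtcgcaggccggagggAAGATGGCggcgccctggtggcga
MRPL45 (chr17:38297068-38297197, plus strand): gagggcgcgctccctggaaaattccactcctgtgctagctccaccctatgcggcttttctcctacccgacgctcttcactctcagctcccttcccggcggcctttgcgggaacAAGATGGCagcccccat
MRPS27 (chr5:72320211-72320340, minus strand): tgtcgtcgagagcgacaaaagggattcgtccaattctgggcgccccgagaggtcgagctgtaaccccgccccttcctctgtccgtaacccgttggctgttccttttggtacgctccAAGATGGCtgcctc
MRPS18A (chr6:43687762-43687891, minus strand): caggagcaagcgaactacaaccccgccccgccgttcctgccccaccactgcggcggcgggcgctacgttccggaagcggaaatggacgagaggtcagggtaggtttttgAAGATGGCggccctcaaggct
MRPL46 (chr15:88467359-88467488, minus strand): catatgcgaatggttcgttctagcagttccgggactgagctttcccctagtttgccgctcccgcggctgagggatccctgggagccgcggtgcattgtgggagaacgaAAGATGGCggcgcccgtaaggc
In these 5 genes the capitals begin 6 bases after the start site in MRPL38, 13 in MRPL45, 16 in MRPS27, 9 in MRPS18A and 8 in MRPL46.

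The other motifs were less marked. The ETS core CCGGAAGT was in 15.7% of member regions and in 8.87% of those of genes that passed the filter. Its share was near that of the members in cytosolic ribosomal protein genes (16.2%) and oxidative phosphorylation genes (14.7%). The relaxed palindrome of the mitochondrial gene regulator NRF1 was searched with any base at its centre. For members and for genes that passed the filter its shares were 12.9% and 15.8%, and those of its strict form 1.43% and 2.29%. The core of the hypoxia-inducible factor site (ACGTG or GCGTG) was in 67.1% and 63.1%, and the cAMP response letters TGACGTCA were in 0% and 3.22%. The strict NRF1 letters are a case of the relaxed ones, and the other motifs were searched separately. The median log2 ratio of hypoxia to normoxia was -0.048 in the 19 measured members with the YY1 letters and -0.024 in the 50 without. With the hypoxia-inducible factor core it was -0.035 over 47 members, and without it -0.027 over 22. The widest split was that of the ETS core, at -0.061 over 11 members with it and -0.022 over 58 without, and the relaxed NRF1 letters went the other way, at -0.014 over 9 with and -0.036 over 60 without. None of these splits was tested. A match is a description of the letters and not of binding.

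In normoxia the members had a median level of 36.8 FPKM (the authors' unit, corrected for gene length and library size) and in hypoxia one of 38.6, over the 77 genes that passed a filter of 1 CPM in at least 1 library. The median over all 12725 genes that passed was 7.73 and 7.71. Small-subunit genes had medians of 35.3 and 33.3 FPKM, and large-subunit genes of 43.0 and 42.0. The members' medians of 36.8 and 38.6 are both the values of MRPS27 and do not show a rise of the set. Taken gene by gene with a pseudocount of 1, the median log2 ratio of FPKM over the members was -0.038. The highest levels were those of MRPS34, a mitochondrion-specific small-subunit protein (157 FPKM in normoxia and 145 in hypoxia), MRPL33 (146 and 141) and MRPL11 (132 and 134), which lies at the base of the stalk that receives translation factors. Levels in both libraries followed each other closely, with a Pearson r of 0.998 between log2 FPKM across the 77 genes. This r is across genes of 2 libraries and is a description only.

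**Figure D1:**
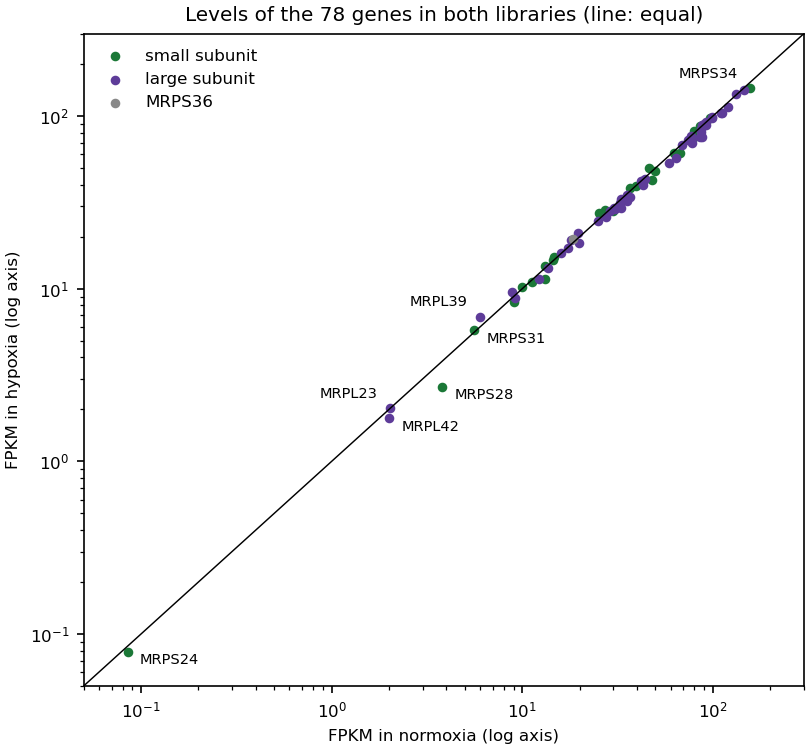
Each point is 1 of the 78 genes, with its FPKM in normoxia on the x axis and in hypoxia on the y axis, both log axes, and the line marks equal levels. Most genes lie along the line above 10 FPKM, and MRPS24, MRPL42, MRPL23 and MRPS28 lie lowest.

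MRPS24 stood far below the other members, and above it the levels rose gradually, from MRPL42, MRPL23 and MRPS28 to MRPS31 (5.57 and 5.75 FPKM) and MRPL39 (5.99 and 6.89). MRPS24, a homologue of a bacterial small-subunit protein, had 1 count in each library and failed the filter, so no ratio is given. Its gene (chromosome 7, 43866558 to 43869517) is overlapped in RefSeq by the readthrough gene URGCP-MRPS24. MRPS28 had 56 counts in normoxia and 43 in hypoxia (3.79 and 2.71 FPKM) and is overlapped by TPD52-MRPS28. These 2 are the only members with a RefSeq readthrough partner of that kind. MRPL23 had 119 and 128 counts (2.03 FPKM in both), and its span on chromosome 11, from 1947332 to 2014944, covers several other transcripts, H19 among them. MRPL42 had 549 and 525 counts but only 2.00 and 1.78 FPKM, and the length derived from counts and FPKM was 15560 bases. How the counting treated reads of overlapping genes is not given in the sources, and its part in these low values was not tested. In all, 32 members are overlapped by another RefSeq gene, and 42 have at least 1 named pseudogene (106 in all), MRPS21 with 9, MRPL57 with 8 and MRPS18C, MRPL42, MRPS17 and MRPS36 with 6 each. Values of these genes are uncertain to the extent that reads were shared with such copies.

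Mitochondrial ribosomal protein messages differed little between the libraries. None of the 77 measured members was 1.2-fold lower or 1.2-fold higher in hypoxia with a counting interval that excluded no change (0 and 0), against 4.6% of all genes that passed the filter lower and 4.86% higher. At 2-fold the counts were also 0 and 0, against 0.44% lower and 0.472% higher. Of 2235 other genes of similar count and length (defined below), 0 were 2-fold lower and 1 was 2-fold higher. This threshold therefore does not set the members apart. The median log2 ratio was -0.029, with quartiles of -0.079 and 0.018, beside a median of 0.0032 and quartiles of -0.10 and 0.11 over all genes. All 77 lay within 1.5-fold, as did 12262 of the 12725 genes that passed and 2226 of the 2235 genes of similar count and length. Together the 78 members took 96412 counts or 0.546% of the normoxia library (exact Clopper-Pearson 95% interval 0.543 to 0.550) and 100740 counts or 0.532% of the hypoxia library (0.529 to 0.535). Over the 77, the ratio of summed counts was -0.029 on the log2 scale (-0.042 to -0.017). Over the genes of similar count and length it was close to this, at -0.032 (-0.034 to -0.029). In bulk RNA, less message per cell and fewer cells that express it cannot be told apart, and a change in total RNA per cell is not seen in such shares.

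**Figure D2:**
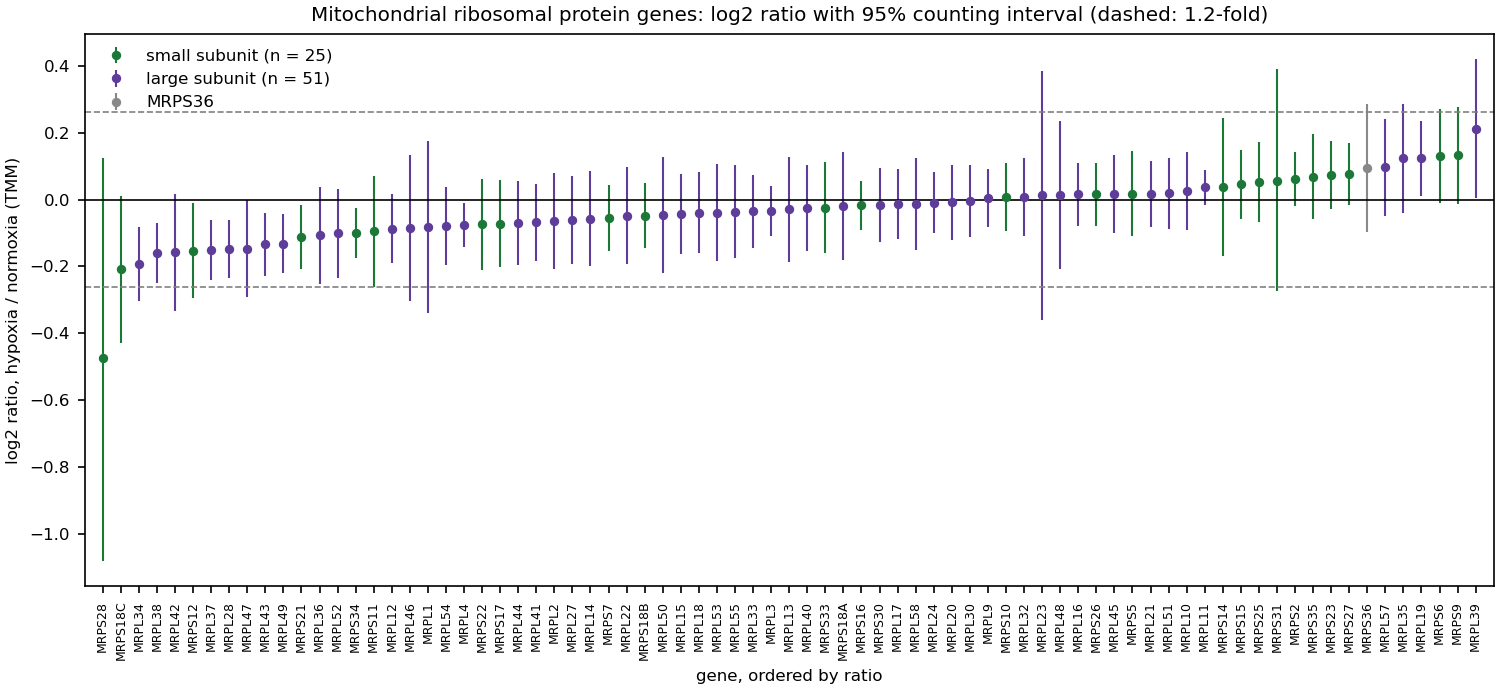
Each point is the log2 ratio of hypoxia to normoxia of 1 of the 77 measured genes, on the y axis, with its 95% counting interval, and genes are ordered by ratio along the x axis. Every interval that clears the 0 line belongs to a point inside the dashed 1.2-fold lines, and MRPS28, the lowest point, has the widest interval.

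Depth was enough to bound most of these differences. For 62 of the 77 members (80.5%) the whole counting interval lay within 1.2-fold either way, as it did for 45.4% of all genes, whose median count in normoxia was 587 against 1106, and for 64.1% of genes of similar count and length. Counts in the hypoxia library ranged over the measured members from 43 (MRPS28) to 6112 (MRPL11). The interval held 0 for 64 members (83.1%, against 71.0% of all genes). It lay wholly below 0 for 11, or 14.3%, against 14.0% of all genes, and wholly above 0 for 2, or 2.60%, against 15.0%. Among the genes of similar count and length, 21.6% lay wholly below and 8.95% wholly above. With the length trend subtracted the members' counts became 5 below and 8 above. At 1.1-fold with an interval excluding no change, 6 members were lower and 1 was higher, against 10.1% and 11.1% of all genes.

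In total 49 of the 77 members (63.6%) had a log2 ratio below 0, against 49.3% of all genes. Genes nearer to the members in count and length also had a majority below 0. These were the 2235 other genes whose mean CPM (21.2 to 115) and length (851 to 3514 bases) both lay between the 10th and 90th percentiles of the members. Of these 61.4% were below 0, and their median log2 ratio was -0.038. Past 1.2-fold either way with an interval excluding no change lay 127 of them (5.68%), against none of the members. Their interquartile range was 0.17 on the log2 scale, and that of the members was 0.097. Median counts in normoxia were 858 for these genes and 1106 for the members, and median lengths were 2330 and 1540 bases, so neither was fully matched. With the running median over gene length subtracted, the medians were -0.0027 and 0.019. No test of the difference was made.

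Gene length moved with the ratio. Members are short, with a median of 1540 bases against 4007 for all genes, and the running median of the other genes rose with length. The 39 members at or under the median length had a median log2 ratio of -0.039 with 28 below 0, and the 38 longer ones had a median of -0.015 with 21 below 0. Across the 77 members Spearman's rho between length and ratio was 0.22 and Pearson's r with log2 length was 0.20. With the length trend of the other genes subtracted, the median of the members was 0.019, above 0, and 30 of 77 lay below 0. The direction of the median therefore turned with this step, and the part of length in the result was not tested further.

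**Figure D3:**
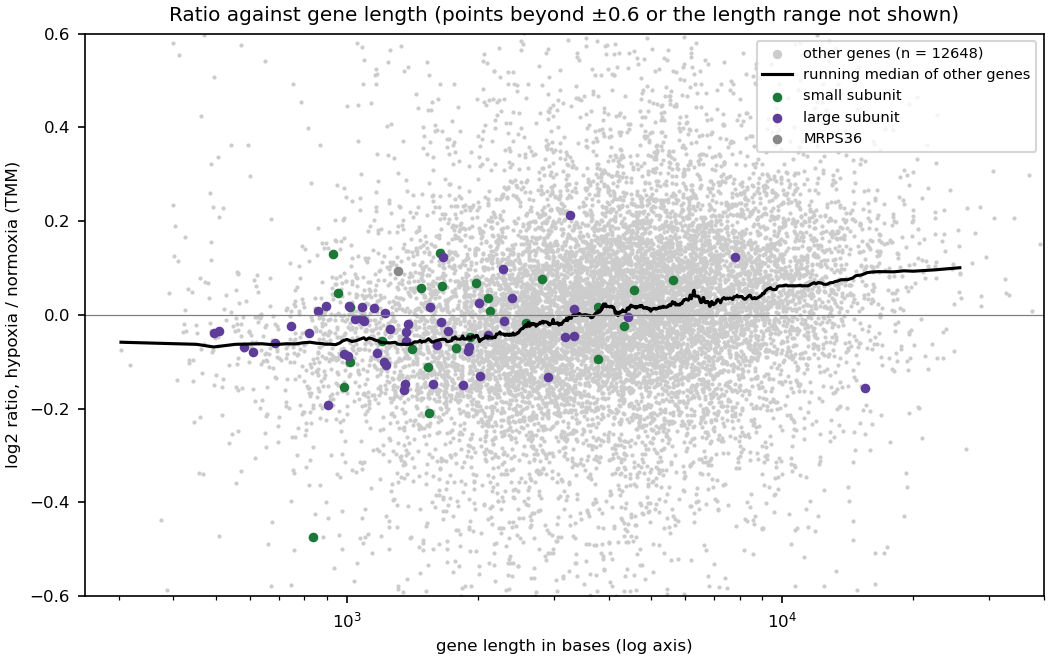
Grey points are the other genes and coloured points the members, with gene length on a log x axis and the log2 ratio of hypoxia to normoxia on the y axis, and the black line is the running median of the other genes. The line runs below 0 at the lengths of most members and above 0 for long genes, and the members scatter on both sides of it.

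In the small subunit the 25 measured genes had a median log2 ratio of 0.0078, with 12 below 0. The interval lay wholly below 0 for 3 (12%) and wholly above for 0. These shares were 14.0% and 15.0% over all genes, and 21.6% and 8.95% over genes of similar count and length. The sign of the small-subunit median was not stable. It was -0.0020 with total counts, -0.0019 with FPKM and -0.0047 with no filter, and the ratio of summed counts was -0.0074 (-0.030 to 0.015). MRPS12, part of the decoding centre where codon and anticodon meet, had 828 counts in normoxia and 794 in hypoxia, a log2 ratio of -0.15 (-0.30 to -0.011). MRPS21 had 1818 and 1794 counts (-0.11, -0.21 to -0.017) and MRPS34 had 2815 and 2801 (-0.10, -0.18 to -0.024). These were the small-subunit genes with an interval below 0. Each upper bound lay above the median of genes of similar count and length (-0.038). With centring on that median, or with the length trend subtracted, all 3 intervals held 0. MRPS9, a homologue of bacterial S9, had 728 and 851 counts, the highest ratio of the subunit at 0.13 with an interval from -0.012 to 0.28. MRPS6 had 759 and 886 (0.13, -0.011 to 0.27), and MRPS2 had 2323 and 2587 (0.063, -0.019 to 0.14). MRPS27, a pentatricopeptide repeat protein, had 1826 and 2054 (0.077, -0.015 to 0.17), and MRPS23 had 1446 and 1623 (0.074, -0.029 to 0.18). The intervals of these 5 genes held 0. MRPS28 was lowest at -0.47, but its few counts gave an interval from -1.08 to 0.13, too wide at this depth to detect a difference.

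Within the small subunit the 15 measured genes with bacterial homologues had a median of -0.017 with 8 below 0, and the 10 mitochondrion-specific ones had a median of 0.034 with 4 below 0. The MRPS18 genes are paralogs: MRPS18C is the homologue of bacterial S18, MRPS18B is a second small-subunit protein and MRPS18A sits in the large subunit despite its name. MRPS18C had 362 counts in normoxia and 334 in hypoxia, MRPS18B had 1690 and 1743, and MRPS18A had 614 and 646. Their log2 ratios were -0.21 (-0.43 to 0.0097) for MRPS18C, -0.048 (-0.15 to 0.049) for MRPS18B and -0.019 (-0.18 to 0.14) for MRPS18A. All 3 intervals held 0 and overlapped each other. Per length, MRPS18B had 49.9 and 48.0 FPKM, MRPS18A had 25.1 and 24.6, and MRPS18C had 13.2 and 11.4.

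The 51 large-subunit genes had a median log2 ratio of -0.036, with 37 below 0. The interval lay wholly below 0 for 8 (15.7%) and wholly above for 2 (3.92%). These shares were 14.0% and 15.0% over all genes, and 21.6% and 8.95% over genes of similar count and length. The direction of the median turned with processing. With the length trend subtracted it was 0.019 with 21 of 51 below 0, and less the median of genes of similar count and length it was 0.0020. MRPL34, a homologue of bacterial L34 (chromosome 19, 17292573 to 17306843), had 1392 counts in normoxia and 1299 in hypoxia, a log2 ratio of -0.19 (-0.30 to -0.082) and the lowest of the subunit. MRPL38, a mitochondrion-specific protein of the central protuberance (chromosome 17, 75898644 to 75904884), had 2043 and 1949 counts (-0.16, -0.25 to -0.070). MRPL37 had 2084 and 2003 (-0.15, -0.24 to -0.061) and MRPL28 had 2173 and 2091 (-0.15, -0.24 to -0.061). MRPL43 had 1828 and 1777 (-0.13, -0.23 to -0.039) and MRPL49 had 2118 and 2062 (-0.13, -0.22 to -0.043). MRPL47 and MRPL4 completed the 8, MRPL47 at the edge with an interval from -0.29 to -0.0013. With centring on genes of similar count and length the intervals of MRPL47 and MRPL4 held 0. Each of these 8 had fewer raw counts in the deeper hypoxia library except MRPL4, which had 3734 in normoxia and 3776 in hypoxia.

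On the higher side, MRPL39, a mitochondrion-specific protein (chromosome 21, 25585656 to 25607859), had 344 counts in normoxia and 425 in hypoxia, the highest ratio of all members at 0.21 (0.0038 to 0.42). MRPL19, a homologue of bacterial L19 at the face between the subunits, had 1218 and 1415 counts (0.12, 0.012 to 0.24). Both lower bounds lay close to 0, and the number of members with an interval above 0 moved from 2 to 1 with total counts, and to 8 both with the length trend subtracted and with centring on genes of similar count and length. The 30 large-subunit genes with bacterial homologues had a median of -0.035 with 21 below 0, and the 21 mitochondrion-specific ones had -0.046 with 16 below 0.

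The intervals of 5 further large-subunit genes, from the set chosen to be named, held 0. MRPL12, the stalk protein that contacts translation factors, had 1539 counts in normoxia and 1545 in hypoxia (-0.087, -0.19 to 0.016). MRPL10, which holds it, had 1170 and 1270 (0.026, -0.090 to 0.14), and MRPL11 had 5588 and 6112 (0.037, -0.016 to 0.089). MRPL45, which anchors the ribosome to the inner membrane, had 1145 and 1235 (0.016, -0.10 to 0.13). MRPL58, a peptidyl-tRNA hydrolase built into the large subunit, had 841 and 889 (-0.013, -0.15 to 0.13). MRPS36, now regarded as a subunit of the oxoglutarate dehydrogenase complex and not of the ribosome, matched the symbol rule and had 426 and 485 counts (0.094, -0.096 to 0.29).

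Member genes are scattered over 21 chromosomes, with at most 8 on one, and many share a start region with a neighbour. Of the 70 with a RefSeq start, 18 (25.7%) had an opposite-strand gene of the table starting within 1000 bases upstream, against 11.9% of the 12509 genes of the table with a start. This comparison was chosen after the values were seen. One pair joins both subunits: MRPS11 and MRPL46 start 320 bases apart on chromosome 15, with counts of 604 and 603 for MRPS11 and 344 and 346 for MRPL46 in normoxia and hypoxia. Their log2 ratios were -0.095 (-0.26 to 0.070) and -0.084 (-0.30 to 0.14). MRPS12 starts 181 bases from SARS2, the mitochondrial seryl-tRNA synthetase, which had 406 and 389 counts, and both genes had a log2 ratio of -0.15. The interval of SARS2 ran from -0.36 to 0.050.

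In 2 further examples both ratios were below 0 with overlapping intervals. MRPL49, at -0.13 (-0.22 to -0.043), starts 49 bases from FAU, which encodes a cytosolic ribosomal protein fusion and had 5179 and 5271 counts (-0.067, -0.12 to -0.012). MRPL27 was at -0.061 (-0.19 to 0.070) and EME1, a DNA repair nuclease subunit 45 bases away, at -0.29 (-0.54 to -0.038). In 2 examples of the other kind the partners had opposite signs. MRPS2 was at 0.063 (-0.019 to 0.14) while its neighbour C9orf116, 813 bases away, had 219 and 172 counts (-0.44, -0.74 to -0.15). MRPL57 was at 0.097 (-0.048 to 0.24) and its neighbour SKA3, a mitotic gene, at -0.21 (-0.41 to -0.011). Among the pairs not described, signs were the same for MRPL37 with CYB5RL, MRPL51 with NCAPD2, MRPL54 with APBA3, MRPS18B with PPP1R10 and MRPS18C with HELQ. Opposite signs were found for MRPL18 with TCP1, MRPL30 with MITD1, MRPL32 with PSMA2, MRPL40 with HIRA, MRPL50 with ZNF189 and MRPS27 with PTCD2. Pairs of both kinds were thus found, but a sign alone does not show a difference. In several pairs the intervals of both genes held 0, as for MRPL30 (-0.0050, -0.11 to 0.10) with MITD1 (0.060, -0.22 to 0.35). Signs over all head-to-head pairs of the table were not counted, so nothing is concluded about these pairs.

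Of the mitoribosome proteins that carry other names, 5 of 5 were measured, with 1 interval wholly below 0 and 1 wholly above. AURKAIP1 had 2138 counts in normoxia and 2009 in hypoxia (-0.18, -0.27 to -0.094), and PTCD3, a pentatricopeptide repeat protein of the small subunit, had 1223 and 1455 (0.16, 0.047 to 0.27). The GTP-binding small-subunit protein DAP3 had 3342 and 3582 (0.0073, -0.061 to 0.076). None of the 5 passed 1.2-fold.

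Genes that build and serve the mitochondrial ribosome had wider interquartile ranges than the members (0.097), with 0.20 for assembly genes, 0.13 for translation factors and 0.18 for aminoacyl-tRNA enzymes on the log2 scale. These lists also had other counts and lengths, and the differences were not tested. Over all genes, 14.0% of intervals lay wholly below 0 and 15.0% wholly above. Of 25 assembly and ribosomal RNA modification genes, 16 were below 0, with a median log2 ratio of -0.040, 4 intervals wholly below 0 and 0 wholly above. RBFA, an assembly factor of the small subunit, was lowest at -0.18 (-0.37 to -0.00041), and the methyltransferase TFB1M was highest at 0.19 (-0.10 to 0.49). Of 16 translation factors, 6 were below 0, with a median of 0.022, and 3 intervals lay wholly above 0. These were GFM2, a recycling factor, at 0.12 (0.0097 to 0.22), MTRFR, a rescue factor, at 0.30 (0.033 to 0.56), and LRPPRC, which stabilises mitochondrial messages, at 0.11 (0.049 to 0.16) on 4598 and 5277 counts. MTRFR alone of this list passed 1.2-fold with an interval excluding no change. The elongation factor TUFM had 6787 and 7149 counts (-0.018, -0.066 to 0.030). MTRF1 was the lowest of the list at -0.40, past 1.2-fold by its ratio, on 79 and 64 counts and with an interval that held 0 (-0.90 to 0.097).

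Among 20 aminoacyl-tRNA enzymes of mitochondria the median was 0.0079, with 10 below 0, 1 interval wholly below 0 and 4 wholly above. PARS2, the prolyl-tRNA synthetase, had 77 counts in normoxia and 126 in hypoxia (0.62, 0.20 to 1.05), was the only one past 1.2-fold, and rests on few counts. MARS2 was lowest at -0.21 (-0.44 to 0.023). Of 10 genes that copy and transcribe mitochondrial DNA, 4 were below 0, with a median of 0.010, 2 intervals wholly below 0 and 1 wholly above. The RNA polymerase POLRMT had 2395 and 2255 counts (-0.18, -0.26 to -0.096), and its partner TFB2M had 897 and 804 (-0.25, -0.39 to -0.11). TFAM, which packages mitochondrial DNA, had 1378 and 1461 (-0.0083, -0.12 to 0.099), and POLG2, a subunit of the DNA polymerase, was highest at 0.24 (0.034 to 0.45).

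Other large complexes made of short genes also had medians slightly below 0. The 83 measured cytosolic ribosomal protein genes had a median log2 ratio of -0.039 with 64 below 0, 39 with an interval wholly below 0 (47.0%, against 14.3% of the members) and 6 wholly above, and none passed 1.2-fold. Their median count in normoxia was 12040, which narrows the intervals. The extremes were RPS10 at -0.21 (-0.56 to 0.14) and RPL22L1 at 0.097 (-0.074 to 0.27). The 80 oxidative phosphorylation genes had a median of -0.072 with 67 below 0, 26 with an interval wholly below 0 (32.5%) and 3 wholly above. They ran from COX6B2 at -0.68 (-1.77 to 0.37, on 21 and 14 counts) to COX6B1 at 0.12 (0.016 to 0.22), and none passed 1.2-fold with an interval excluding no change. With the length trend subtracted the medians were 0.019 for the members, 0.0073 for the cytosolic ribosome and -0.018 for oxidative phosphorylation.

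**Figure D4:**
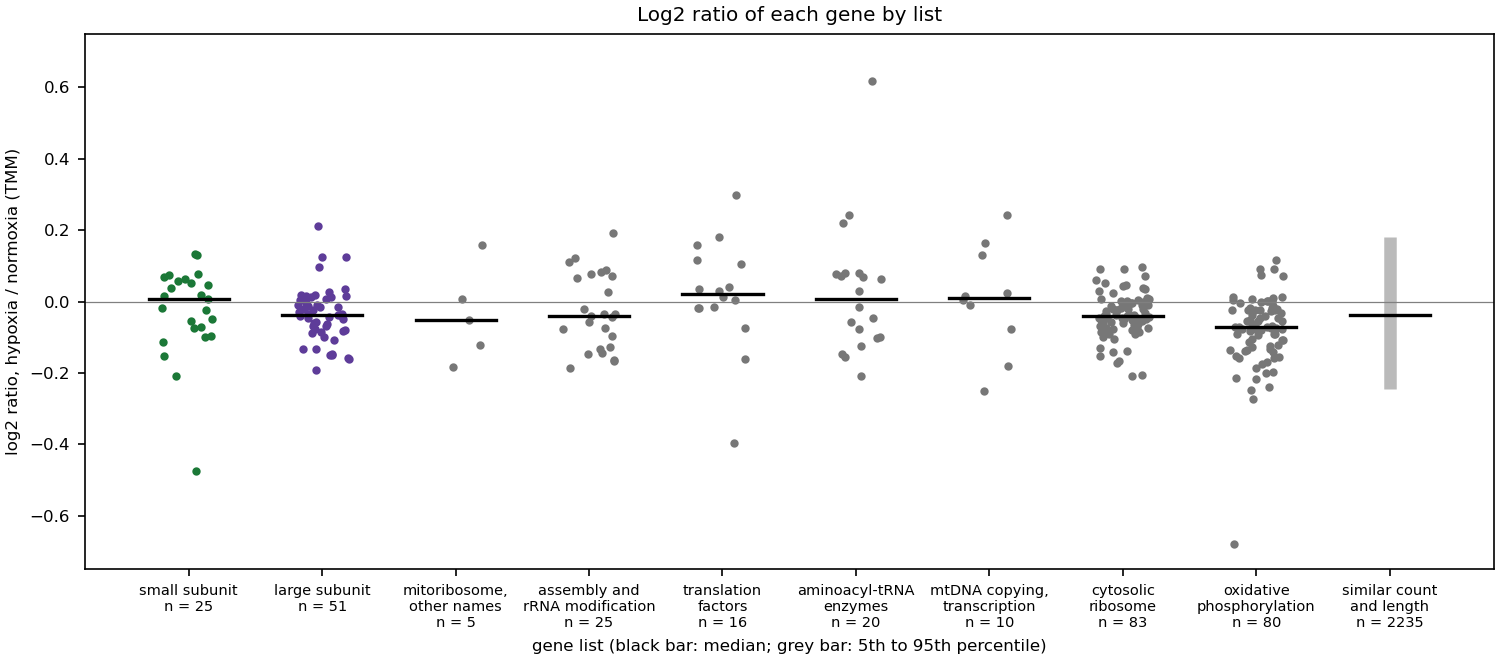
Each point is the log2 ratio of hypoxia to normoxia of 1 gene, on the y axis, in the list named on the x axis, and black bars are medians. The grey bar spans the 5th to 95th percentile of the 2235 genes of similar count and length, and the points of both mitochondrial subunits, MRPS28 and MRPL39 apart, lie within it.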

How the data were processed

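RNA was extracted with TRIzol and made into libraries with a stranded mRNA kit, per the labels' protocols. HISAT2, HTSeq, Cufflinks, Bowtie and Trimmomatic appear in the submitters' processing notes without roles, beside the build GRCh38. The sources used here do not state strand use in counting or a rule for shared reads. Analysis began from read counts per gene as deposited by the authors, and the FPKM that the authors deposited. Gene lengths were derived from both.

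Counts were scaled with TMM in edgeR 4.0.16 (R 4.3.3). Ratios with exact conditional (Clopper-Pearson) 95% intervals came from scipy 1.17.1, with pandas 2.3.3, numpy 2.4.6 and matplotlib 3.10.9 under Python 3.11.15. Genes below a CPM of 1 in both libraries were dropped. Intervals were computed from the counts alone and cover counting error only. Reads lacking molecular identifiers do not each stand for a separate molecule, so the intervals may be too narrow even for that error. No p-value was computed, since each condition has 1 library. The code was tested on simulated data. The running median over length used 501 genes.

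Members, lists and the rule for genes named were chosen with earlier results of these data known. The rule took the 8 highest and 8 lowest members by the interval bound nearest to 0, the 3 highest and 3 lowest by FPKM, the extremes of each list and a fixed set. Genes with an interval excluding 0 in a list, head-to-head neighbours and markers were named in addition, after their values were seen. Of 78 Entrez identifiers 78 matched RefSeq (GRCh38.p14), the first start listed per gene was used, and protein sequences were not used here. miRNA files were not used here. Alternatives were scaling by upper quartile, by total counts or by size factors of DESeq2 1.42.0, FPKM with a pseudocount of 1 or 0.1, other filters, the length trend, centring on genes of similar count and length, and a 1.1-fold threshold.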

Additional observations from a re-analysis of the deposited data

How the results depend on the processing

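All 10 alternatives were fixed with the lists. A median was taken as kept when it moved by less than the half-width of the counting interval of its summed counts (0.013 for all members), and a number of genes when it stayed within 1.5-fold. DESeq2 size factors, upper quartile scaling, no filter and a CPM of 5 kept every list value within these limits, but the small-subunit median, 0.0078, was -0.0047 with no filter, -0.0020 with total counts and -0.0019 with FPKM at either pseudocount. With the length trend removed the median of all members was 0.019 and that of the large subunit 0.019, both above 0, with 30 members below 0, 5 intervals wholly below 0 and 8 wholly above. Centring on genes of similar count and length gave medians of 0.0092 for all members, 0.046 for the small subunit and 0.0020 for the large subunit, with 6 intervals wholly below 0 and 8 wholly above. With total counts 1 interval lay wholly above 0. FPKM, with a pseudocount of 1 or of 0.1, put 1 member past 1.2-fold lower by the ratio alone, because FPKM carry no interval. A threshold of 1.1-fold gave 6 lower and 1 higher. The log2 ratios of the 29 named members stayed within their counting intervals under every alternative that gave them. For the filters and the 1.1-fold threshold this was fixed in advance, because they do not alter a ratio. Each other scaling of the counts shifted all genes by the same small amount. Several intervals wholly below 0 did not stay so with the length trend removed or with centring, those of MRPS12, MRPS21 and MRPS34 among them. No paired analysis was possible because each condition has 1 library. Counts limit MRPS24, MRPS28, MRPL23 and MRPS31, whose intervals are wide or absent.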
